A study of Bos taurus with 34 samples.

Results

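The genes described here are those carried by the mitochondrial genome of cattle, followed through 34 single bovine preimplantation embryos. They were chosen as every row that the deposited tables place on chromosome MT. These rows number 32 of 18442 genes in the blastocyst table, made up of 13 messenger RNA genes, 2 ribosomal RNA (rRNA) genes and 17 transfer RNA (tRNA) genes. In the morula table they number 23 of 14878 genes, with the same 13 messenger RNA and 2 rRNA genes and 8 tRNA genes. The start and end of all 32 rows equal those of a RefSeq mitochondrial gene, and the type of RNA was taken from there, since the tables give no symbol for the rRNA and tRNA genes.

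The blastocysts were 9 CSF2RA knockouts (7 females, 2 males) and 17 controls (8 females, 9 males), and the morulae 4 knockouts (3 females, 1 male) and 4 controls (1 female, 3 males). The series title names a deletion of CSF2RA, a receptor subunit, while sample titles have CSF2KO, after the cytokine that binds it. For every embryo of each group the protocols give culture in vitro and recombinant Wnt5A, while the series title speaks of gene expression in utero and its design of embryos produced in vivo. How the deletion was made, whether a knockout embryo was edited in every cell, and the genotype of the controls beyond that word are not given in the sources used here. CSF2RA itself had 2 reads in 1 of 9 knockout blastocysts and 2 reads in 2 of 17 controls, too few to check the genotype labels. The morula table has no row of that name.

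Mitochondrial DNA encodes subunits of 4 of the respiratory chain and ATP synthase complexes: the ND genes of NADH dehydrogenase (complex I), CYTB of complex III, the COX genes of cytochrome c oxidase (complex IV), and ATP6 and ATP8 of ATP synthase (complex V). It also carries the rRNAs and tRNAs of the mitochondrial ribosome's own translation. Both strands are transcribed as long RNAs that are cut, largely at the tRNAs between the genes, so that the amounts of the finished RNAs are set by their processing and stability as well as by transcription. The early embryo takes its mitochondria from the oocyte, and cleavage divides them among the cells. In human cells ATP8 and ATP6, and ND4L and ND4, stay joined on shared messengers, and the ND6 messenger, from the strand opposite the other ND genes, has no poly(A) tail.

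Libraries held 44879 reads in genes (knockout 57) to 17598170 (control 37) in blastocysts, and 43679 (knockout 49) to 1526852 (control 39) in morulae. Levels are given in RPKM, reads scaled to the length of each gene and to an effective library size. That size was 0.84 (control 52) to 1.35 (knockout 57) of the reads in genes in blastocysts, and 0.46 (knockout 21) to 1.39 (knockout 1) in morulae. RPKM of different embryos carry that factor, and shares of reads do not. The mitochondrial genes have no introns, so their RPKM can be compared per length within an embryo. Poly(A) selection and counting in short or overlapping genes can differ between them, which was not tested. Shares of reads are over all reads in genes of that embryo. They were computed from whole reads recovered from the RPKM values, and their 95% Wilson intervals cover counting error only. As libraries were made from poly(A) RNA of whole embryos, fewer cells of a type and less RNA per cell cannot be told apart, and a share also moves with every other RNA of the embryo. Neighbouring genes share bases, 40 in ATP8 and ATP6, 7 in ND4L and ND4, 17 in ND5 and ND6, 3 in COX1 and a tRNA gene, and 1 in ATP6 and COX3. Whether counting used the strand is not given, nor is the treatment of reads that also match nuclear copies of mitochondrial DNA, so the values of such genes are uncertain to that extent. Control blastocyst 12 stood apart from the other blastocysts, and results that rest on it are given with and without it.

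Mitochondrially encoded genes took 3.25% (knockout 17) to 6.02% (knockout 57) of reads in the 9 knockout blastocysts, with a median of 4.74%. In 16 of the 17 control blastocysts they took 3.22% (control 36) to 6.87% (control 37), with a median of 4.61%. In control 12 they took 35.8% (interval 35.7% to 35.9%). Apart from that embryo, all knockouts lay within the control range. The 13 messenger RNA genes made up most of these reads, with 2.34% to 4.26% of all reads in knockouts and 2.62% to 4.61% in controls without control 12. The rRNA genes together took 0.845% to 1.76% in knockouts and 0.573% to 2.41% in those controls.

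In morulae the shares were spread more widely. The knockouts had 1.96% (knockout 49), 2.47% (knockout 5), 4.07% (knockout 21) and 5.004% (knockout 1). The controls had 2.57% (control 73), 4.07% (control 54), 6.54% (control 39) and 7.27% (control 41). The highest 2 values were those of controls and the lowest 2 those of knockouts, and the groups overlapped between. That order depended on a few abundant nuclear genes. Over reads without the 6 nuclear genes that took more than 5% of any embryo, knockout 21 had the highest share of the 8, 12.3%, followed by 8.96% in control 41, 6.96% in control 39 and 5.40% in knockout 1. Control 73 was then lowest, at 3.52%, below knockouts 49 (3.73%) and 5 (3.80%), and control 54 had 4.34%. Over all reads, the lone female control had the lowest share of the controls and the lone male knockout the highest of the knockouts. The 2 tables were scaled separately, and shares of reads are free of that scaling.

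**Figure D1:**
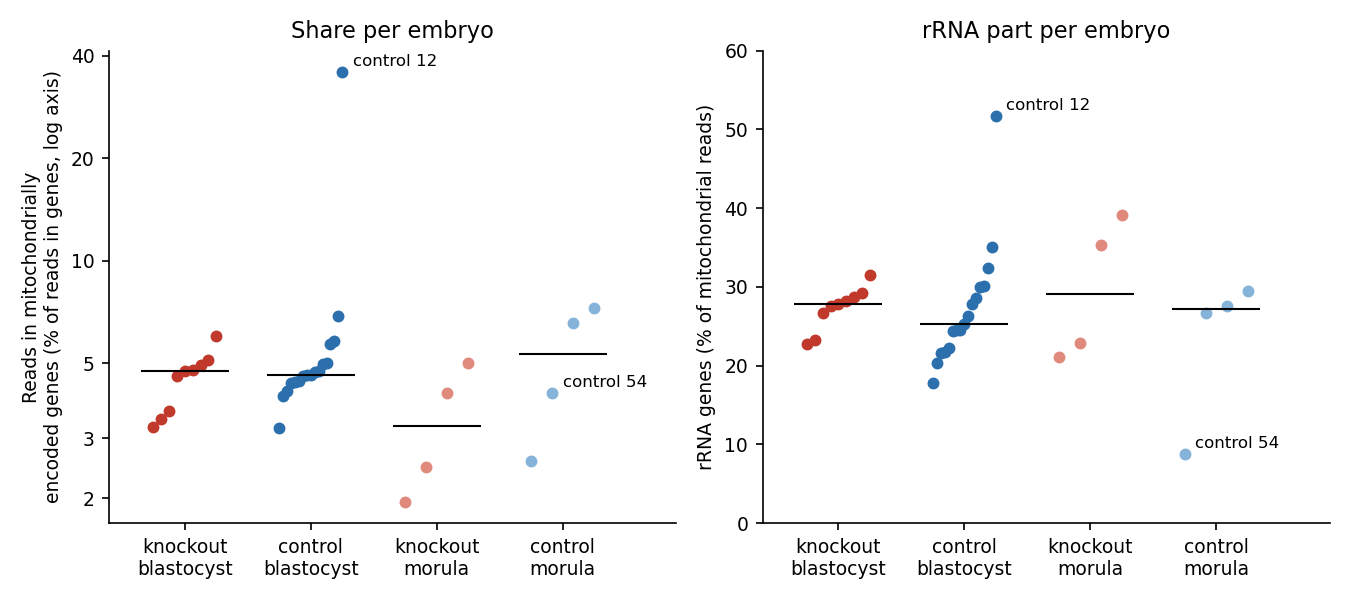
The left panel plots the reads in mitochondrially encoded genes as a percentage of reads in genes (log axis), and the right panel the percentage of those mitochondrial reads that fell in the rRNA genes. Each point is 1 embryo and each line a group median. Control blastocyst 12 stands at 35.8% and 51.7%, and control morula 54 at 8.78% in the right panel.

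The rRNA genes held 22.8% to 31.5% of mitochondrial reads in knockout blastocysts and 17.8% to 35.03% in controls without control 12, which had 51.7%. Among control morulae they held 26.7% (control 41), 27.6% (control 39) and 29.4% (control 73), against 8.78% in control 54. Knockout morulae had 21.1% (knockout 49), 22.8% (knockout 1), 35.3% (knockout 5) and 39.2% (knockout 21). The shorter rRNA gene (ENSBTAG00000043567, MT 431 to 1385) had 0.70 to 3.25 times the RPKM of the longer one (ENSBTAG00000043570, MT 1453 to 3023) in blastocysts, with medians of 1.95 in knockouts and 1.93 in controls. Control morula 54 was at 4.27, the highest of the morulae. In that morula the 2 rows named bta-mir-2887-1 also held 0.007% of reads, against 4.33% to 5.47% in the other 3 control morulae. Whether the low rRNA part and the low share of those rows are related was not tested.

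Per length, COX3 (ENSBTAG00000043560, MT 8970 to 9750), a core subunit of cytochrome c oxidase, was the most abundant messenger in 25 of 26 blastocysts and in 8 of 8 morulae. COX1, the catalytic subunit of the same enzyme, was highest in the other blastocyst. Knockout blastocysts held COX3 at 5297 to 11667 RPKM (median 7066) and control blastocysts at 6154 to 55197 RPKM (median 9197), or at most 26179 RPKM without control 12. Next to COX3 stood the shorter rRNA gene, with a median of 7177 RPKM in knockout and 6232 RPKM in control blastocysts. COX3 exceeded it in 8 of 9 knockouts and 14 of 17 controls.

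The lowest messengers per length were ND3 (ENSBTAG00000043568, MT 9823 to 10168), a small membrane subunit of complex I, and ATP8 (ENSBTAG00000043564, MT 8129 to 8329), a small subunit of ATP synthase. ND3 was lowest in 15 of 26 blastocysts and 5 of 8 morulae, and ATP8 in 5 blastocysts and 3 morulae. ND5, a proton-pumping subunit of complex I, was lowest in another 5 blastocysts and ND4L in 1, control 12. ND3 had a median of 545 RPKM in knockout and 517 RPKM in control blastocysts. ATP6, whose first bases overlap the end of ATP8, had medians of 3347 and 4276 RPKM, so that ATP8 held 0.09 to 0.27 of the RPKM of ATP6 in blastocysts. ND4L held 0.35 to 1.08 of the RPKM of ND4 there, lowest in control 12.

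Between those ends the order was loose. Median levels in knockout and control blastocysts were 3478 and 3488 RPKM for COX1, 3079 and 3653 RPKM for COX2 (the copper-binding subunit of cytochrome c oxidase), 3072 and 3316 RPKM for ND4, and 2860 and 3161 RPKM for CYTB. ND4L stood at 2928 and 2201 RPKM. ND1, ND2 and ND6, membrane subunits of complex I, stood at 1595 and 1723, 1366 and 1634, and 1396 and 1471 RPKM, and ND5 at 1162 and 1039 RPKM. Of 14 neighbouring pairs in the order of medians, the ranges overlapped for all 14 in control blastocysts and control morulae and for 13 in knockout blastocysts and knockout morulae. The pair kept its order in every embryo for 1 of 14 pairs in control blastocysts (ND6 over ND5) and 2 in knockout blastocysts (COX3 over the longer rRNA gene, CYTB over ND1). Ranked by median RPKM, the 13 messengers had a Spearman coefficient of 0.97 between knockout and control blastocysts and of 0.95 between knockout and control morulae, across genes that are not independent.

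**Figure D2:**
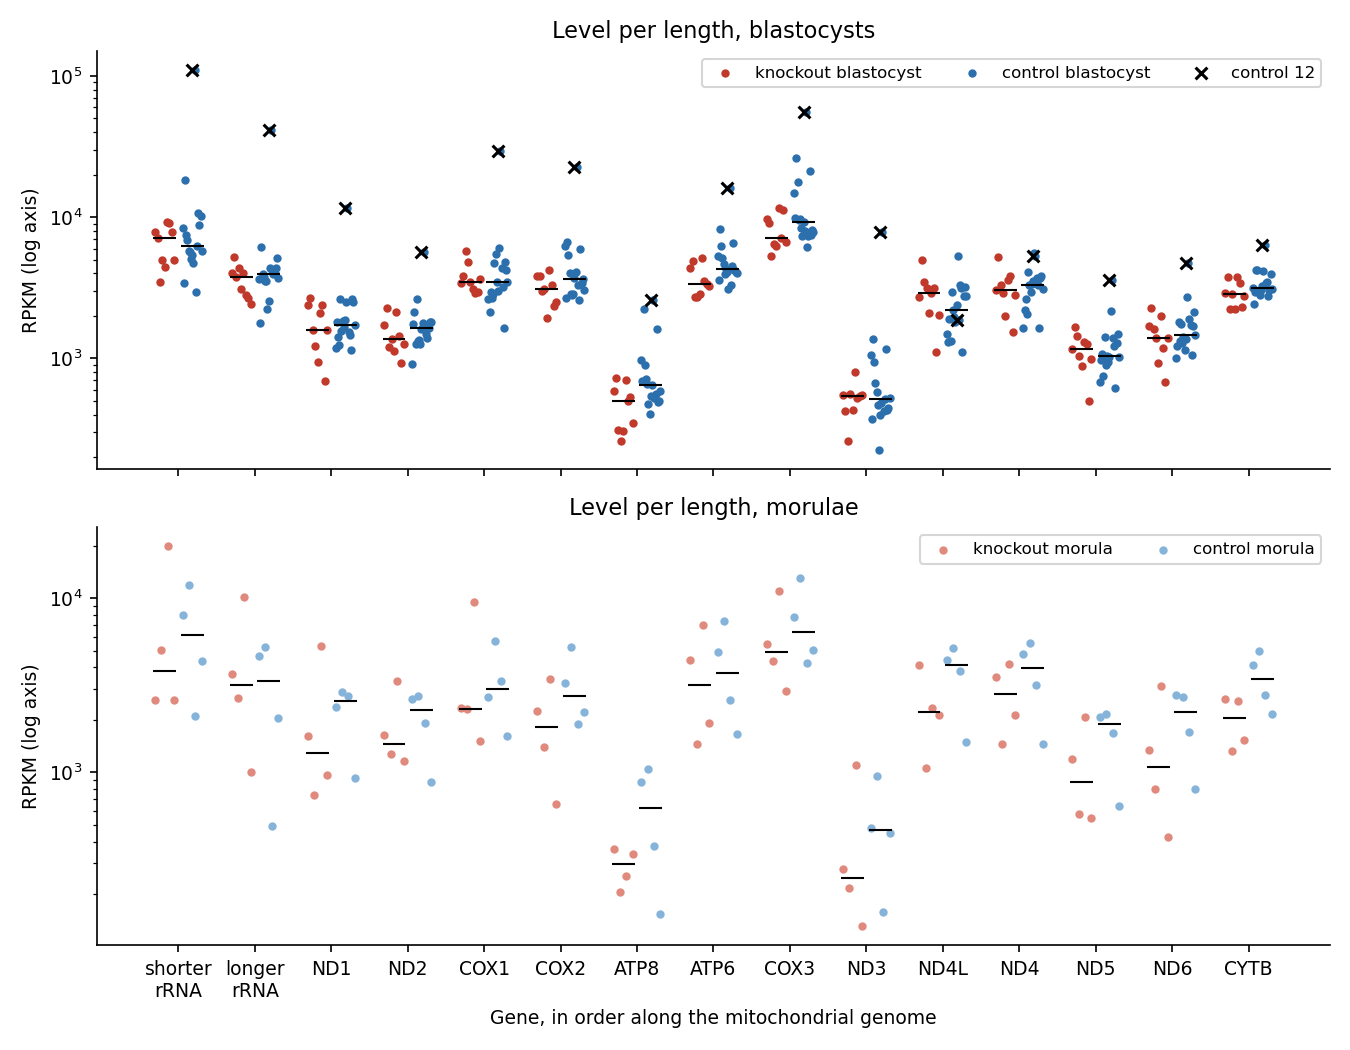
RPKM (log axis) of the rRNA and messenger RNA genes in order along the mitochondrial genome, in blastocysts (top) and morulae (bottom). Each point is 1 embryo, lines are group medians and crosses mark control blastocyst 12. By median COX3 is the highest messenger in both stages, and ND3 and ATP8 are the lowest.

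The tRNA genes were hardly sequenced. They had 8203 reads over all 26 blastocysts and 117 over all 8 morulae, 0.00067% to 0.040% of the reads of a blastocyst, and 7 of 17 had under 10 reads in all. One of them, the tRNA gene at MT 15726 to 15791 (ENSBTAG00000043582), held 7360 of the blastocyst reads, 6682 of them in control 37. Per length this gene was highest in control 37 (6619 RPKM), control 36 (4912 RPKM) and control 35 (2362 RPKM), and at most 1248 RPKM in every other blastocyst, among which control 12, control 71 and knockout 3 were listed at 0. The tRNA gene at MT 7229 to 7299, which overlaps COX1, came next with 362 reads.

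Control blastocyst 12 had 893152 reads but 2791 detected genes, where the other control blastocysts had 8667 to 16652. Of 15 messenger and rRNA genes, 13 took a larger share of its reads than of any other blastocyst. The shorter rRNA gene held 11.5% of its reads, 19.5 times the median of the other controls, and the longer one 7.05%, 12.1 times that median. Among messengers the ratio to that median was 16.6 for ND3, 9.36 for COX1, 7.32 for ND1 and 6.79 for COX3. It was 2.20 for CYTB, 1.71 for ND4 and 0.90 for ND4L, and the last 2 lay within the range of the other controls. As parts of the messenger reads, COX1 (28.4%) and ND3 (1.70%) were above every other blastocyst, ND4L (0.348%), ND4 (4.58%) and CYTB (4.56%) below every other, and 8 of 13 inside.

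Most markers of the blastocyst's lineages were low in this embryo. Of 6 trophectoderm markers 4 were at 0, CDX2, GATA3, KRT18 and TFAP2C, and the list summed to 2011 CPM (reads scaled to the library total) against 16377 to 35449 CPM in the other blastocysts. KRT8 was at 775 CPM, against at least 7648 CPM elsewhere. GATA2 went the other way, at 1236 CPM, and was higher only in control 46 (1481 CPM). Both epiblast markers in the table, NANOG and POU5F1, were at 0, where the list summed to 281 to 1203 CPM elsewhere. The marker lists of cumulus cells, oviduct epithelium, leukocytes and fibroblasts were at 0 in all of their 7, 4, 4 and 5 genes. Of these, the cumulus, oviduct epithelium and leukocyte lists also summed to 0 in some other blastocysts. Their medians over the other blastocysts were 9.85, 4.62 and 6.16 CPM, so their zeros here say little. Erythrocyte markers summed to 129 CPM, above the 61.6 CPM of the next embryo. HBB, at 0 in every other blastocyst, held 97.4 CPM of this and HBA 31.3 CPM, while ALAS2 was at 0. Of the nuclear genes that serve mitochondrial DNA, 27 of 33 were at 0 in it, among them TFAM, POLRMT and LRPPRC. The other 6 were detected, and POLG, the catalytic subunit of the mitochondrial DNA polymerase, stood at 45.7 RPKM. The part of these losses in its high mitochondrial share was not tested.

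**Figure D3:**
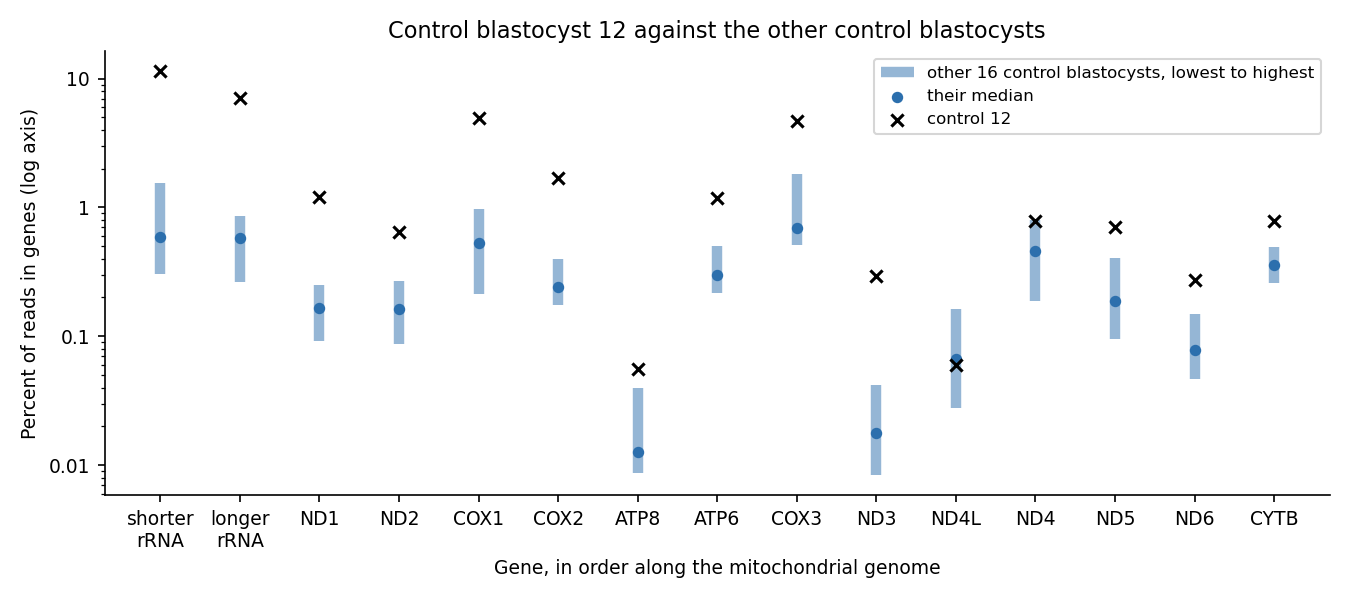
Percentage of reads in genes (log axis) taken by each rRNA and messenger RNA gene in control blastocyst 12 (crosses), beside the range (bars) and median (points) of the other 16 control blastocysts. The crosses lie above the bars except at ND4 and ND4L.

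ND4 (ENSBTAG00000043577, MT 10529 to 11906), a proton-pumping subunit of complex I, had 0.81 to 1.83 COX3 reads for each of its own reads in 19 of 26 blastocysts. The ratio was 7.37 in control 52, 5.91 in control 12, 5.66 in control 37, 5.09 in control 35, 4.90 in control 51, 4.10 in knockout 58 and 2.54 in control 36. Of these 7 embryos 4 were males, and 1 was a knockout. In morulae the ratio ran from 0.76 (control 54) to 1.96 (control 73), and no morula reached the values of those blastocysts.

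COX3 and ND4 are themselves counted in complexes IV and I, so that the shares of these complexes follow the ratio in part. Complex IV genes took 60.5% of messenger reads in control 52, 58.99% in control 37, 58.1% in control 35, 55.7% in control 51 and 58.5% in knockout 58, and complex I genes 18.9%, 22.2%, 20.3%, 20.8% and 21.7%. Control 12 had 65.3% and 23.01%, and control 36 46.3% and 34.3%. CYTB, the gene of complex III, showed no common direction in these embryos, with 6.66% in control 37, 8.15% in control 52, 10.4% in knockout 58, 10.5% in control 35 and 12.2% in control 51, and 4.56% in control 12 and 9.97% in control 36. Over all blastocysts the medians were 45.2% for complex IV and 35.8% for complex I in knockouts, and 43.8% and 34.9% in controls. COX3 and COX1 did not move together. In control 52, COX3 held 43.3% of messenger reads, the most of any blastocyst, and COX1 6.66%, the least.

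Other measures differed in the same blastocysts. The 7 with the highest COX3 to ND4 ratio were also the 7 with the lowest share of the bta-mir-2887-1 rows, a number of embryos chosen after the values were seen. That share was 0.034% in control 12, 0.458% in control 35, 0.876% in control 52, 0.880% in control 36, 1.09% in control 37, 1.40% in control 51 and 1.85% in knockout 58, and 2.13% to 8.63% in the remaining blastocysts. TFAM, which packages mitochondrial DNA and starts its transcription, was at 7.99 RPKM in control 36, 5.91 in control 37, 5.86 in control 52, 5.84 in control 51, 5.22 in control 35 and 4.26 in knockout 58, while control 12 was listed at 0. The remaining 19 blastocysts had at most 3.04 RPKM. Among the listed nuclear genes TFAM was not alone in this. SSBP1 was at 12.8 (control 36) to 22.8 RPKM (control 37) in the same embryos, and also at 0 in control 12. In the remaining 19 blastocysts SSBP1 was at most 9.92 RPKM (knockout 31). The part of library composition in the COX3 to ND4 ratio was not tested, and the labels name no batch.

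**Figure D4:**
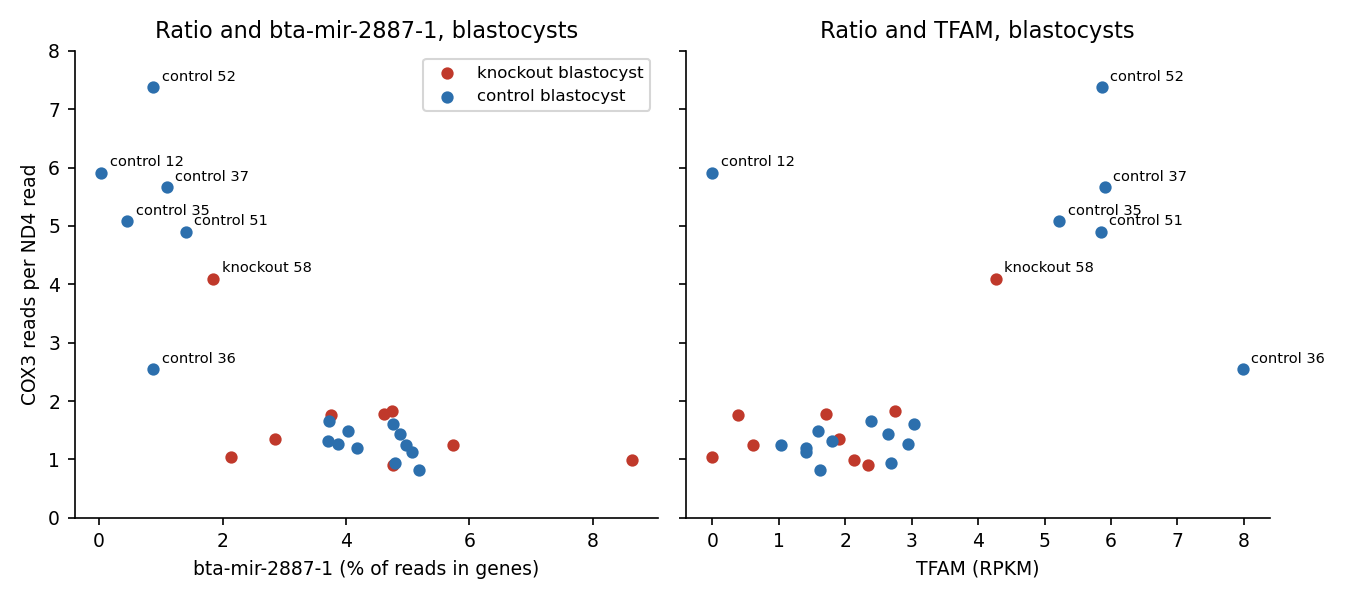
COX3 reads for each ND4 read in blastocysts against the share of reads in the bta-mir-2887-1 rows (left) and the level of TFAM in RPKM (right). Each point is 1 blastocyst. The 7 named embryos, with ratios from 2.54 to 7.37, have the lowest shares, and 6 of them the highest TFAM levels.

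Knockout and control blastocysts were compared to ask whether loss of the receptor subunit changed these transcripts. None of the mitochondrial genes passed. Limma-trend called 0 of 6283 genes tested (0%), all 13 messenger and 2 rRNA genes and 5 of 17 tRNA genes having passed the filter on low values, and 173 genes had an unadjusted p under 0.05. The log2 change, knockout minus control with sex as a term, was below 0 for 12 of 13 messengers, with a median of −0.30, when the median of all tested genes was 0.08. Without control 12 it was below 0 for 11 of 13, with a median of −0.15, when that of all genes was −0.07.

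ATP8 had the smallest p among the messengers. Its level was 259 to 731 RPKM (median 497) in knockouts and 403 to 2574 RPKM (median 647) in controls, or at most 2243 RPKM without control 12. Of the knockouts, 4 (knockouts 4, 17, 3 and 59) lay below every control and the other 5 within the control range. The log2 change was −0.71 ± 0.34 (SE; p = 0.0453, limma-trend adjusted p = 0.994), and −0.53 ± 0.27 (p = 0.0593, limma-trend adjusted p = 0.978) without control 12. Apart from control 12, the highest controls were 37 (2243 RPKM), 52 (1622 RPKM), 35 (977 RPKM) and 51 (897 RPKM), all of them among the 7 blastocysts with high COX3 to ND4 ratios and low bta-mir-2887-1 shares. Without the 7 blastocysts in which those rows held under 2% of reads, a limit chosen after seeing the data, the log2 change of ATP8 was −0.28 ± 0.19 (p = 0.152, limma-trend adjusted p = 0.763), and that of COX3 −0.04. The median of the 13 messengers was then −0.11, 11 of them below 0, when that of all genes was −0.06. ATP8 overlaps ATP6 and had few reads in the shallow libraries.

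For the other genes the interval of the difference included 0. COX3 changed by −0.47 (95% interval −1.15 to 0.20), COX2 by −0.48 (−1.12 to 0.16), ND3 by −0.49 (−1.35 to 0.38) and ATP6 by −0.43 (−0.96 to 0.11). Leaving out control 12 brought these to −0.24, −0.25, −0.15 and −0.25. ND1, ND2, ND6 and CYTB lay between −0.33 and −0.27, COX1 at −0.21, ND5 at −0.18 and ND4 at −0.11. COX1 moved to 0.05 without control 12. ND4L was the messenger above 0, at 0.18 (−0.41 to 0.77), or −0.17 in females only. The shorter and the longer rRNA gene changed by −0.40 and −0.40, or −0.04 and −0.11 without control 12. No messenger or rRNA gene separated the genotypes in RPKM, and no messenger did as a part of messenger reads. How many of all tested genes separated these groups was not computed, so this says nothing particular to the mitochondrial genes.

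The authors' deposited table, from their own test with sex as a block, gives an FDR under 0.05 to 15 of 18442 genes (0.0813%) between knockout and control blastocysts. No mitochondrial gene is among them. ND3 has the smallest FDR of these genes in the authors' deposited table, 0.418, with a log2 fold change of −1.15. ATP8 stands there at −0.88 (FDR 0.426) and the shorter rRNA gene at −1.06 (FDR 0.455). Control 12 is among the embryos of that table, and whether the authors' test left it out is not given. In the limma-trend fit without control 12, ND3, ATP8 and the shorter rRNA gene were at −0.15, −0.53 and −0.04.

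**Figure D5:**
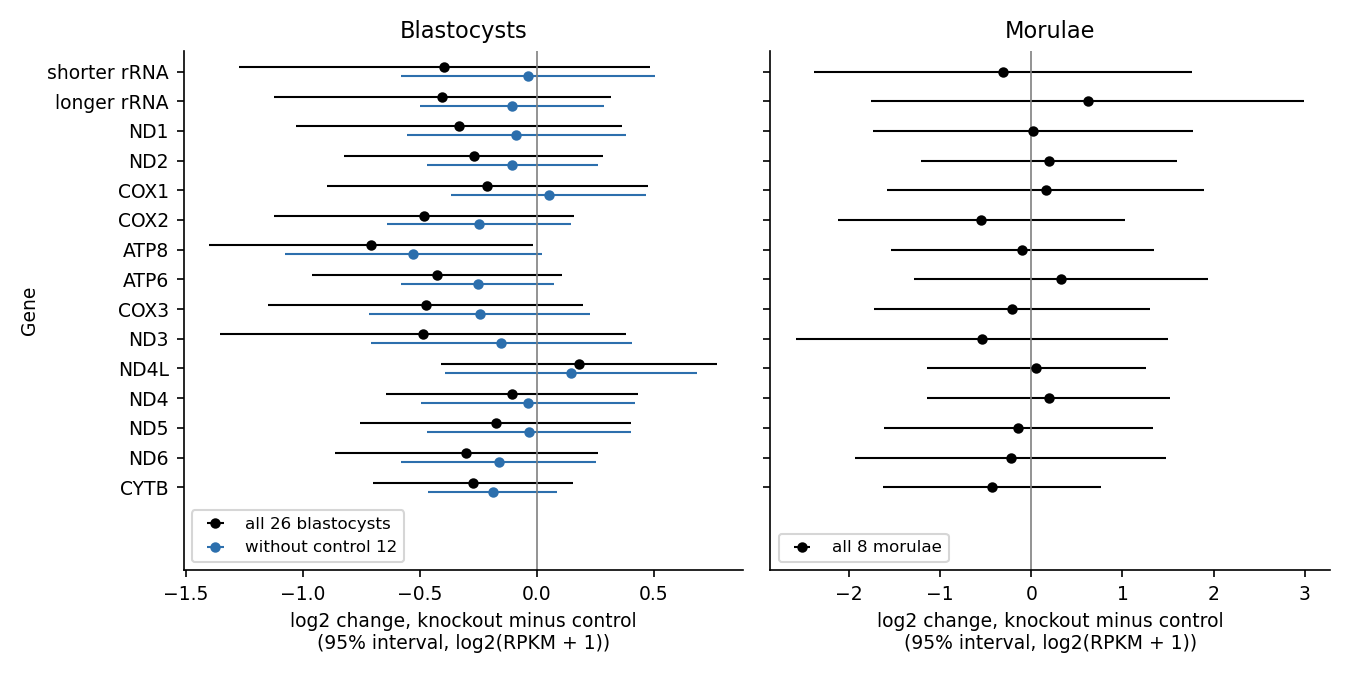
Log2 change, knockout minus control, of each rRNA and messenger RNA gene on the log2(RPKM + 1) scale, with its 95% interval, in blastocysts (left, with and without control 12) and morulae (right). Without control 12 every interval of the blastocysts includes 0, and with it ATP8 alone lies below 0, from −1.40 to −0.02, before adjustment.

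In morulae the same comparison called 0 of 5021 genes tested (0%) by limma-trend, with 345 at an unadjusted p under 0.05, and voom on the recovered reads called 1, which was not mitochondrial. On data simulated at the depth of these morulae, limma-trend missed most of the genes given a change, more than voom did, so a count of 0 here says little. The 13 messengers split into 7 below and 6 above 0, with a median of −0.10, when that of all tested genes was −0.34. Intervals were wide. CYTB had the smallest p among messengers, at −0.43 (95% interval −1.63 to 0.77), with 1333 to 2634 RPKM in knockouts and 2169 to 4985 RPKM in controls. COX3 was at 2942, 4347, 5462 and 10938 RPKM in knockouts 49, 5, 1 and 21, and at 4235, 5015, 7825 and 13036 RPKM in controls 54, 73, 39 and 41. Knockout 49 lay below every control and control 41 above every knockout, and the groups overlapped between.

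Sex was unevenly spread over the genotypes in morulae, with 1 male among the knockouts and 1 female among the controls. Directions depended on the sex term. Without it, 13 of 13 messengers were below 0, with a median of −0.47, when that of all genes was −0.56. They were also all below 0 without knockout 21 (median −0.44) or without control 73 (−0.56), while without knockout 1 only 3 were (0.44). Trophectoderm markers summed to 605 to 9382 CPM in knockout morulae and 16248 to 22651 CPM in controls, which did not overlap. The keratins KRT8 and KRT18 carried that sum. KRT8 was at 46.6 to 4329 CPM in knockouts and 8672 to 9744 CPM in controls, and KRT18 at 105 to 3940 CPM against 6480 to 11599 CPM. Such a separation was not particular to these markers. In RPKM, every knockout morula lay below every control for 397 of 5021 genes tested (7.91%). CDX2, GATA3, GATA2 and TFAP2C, transcription factors of the lineage, overlapped between genotypes. In number, all 6 markers were detected in each control, 3 of 6 in knockout 21 and all 6 in the other knockouts. Epiblast markers were at 0 in knockout 21 and summed to 287 to 835 CPM in the rest. Their part in the mitochondrial values was not tested. The authors' deposited table gives an FDR under 0.05 to 27 of 14878 genes (0.181%) between knockout and control morulae, none of them mitochondrial, and the smallest FDR of a mitochondrial gene there is 0.935.

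Male and female blastocysts were compared with genotype as a term. Limma-trend called 0 of 6283 genes (0%), with 685 at an unadjusted p under 0.05. The log2 change, male minus female, was below 0 for 10 of 13 messengers with control 12, a female, in the fit (median −0.12) and for 5 of 13 without it (median 0.08), when the medians of all genes were 0.26 and 0.11. ATP6 had the smallest p without control 12, at 0.31 ± 0.15 (SE; p = 0.0529, limma-trend adjusted p = 0.535).

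Of 34 nuclear genes that maintain and transcribe mitochondrial DNA or process its RNA, 33 are in the blastocyst table. Between genotypes 20 were tested there, 10 higher and 10 lower in knockouts (7 and 13 without control 12), and none passed. The smallest p belonged to MTERF3, a repressor of mitochondrial transcription in mice, at 0.50 ± 0.21 (limma-trend adjusted p = 0.994). Without control 12 MTERF3 was at 0.41 ± 0.21 (limma-trend adjusted p = 0.978). The median of MTERF3 was 1.44 RPKM in knockouts and 1.14 in controls. TEFM, an elongation factor, and FASTK, a protein whose mitochondrial form is needed for the ND6 messenger in mammalian cells, followed at 0.39 and 0.71. Both were at 0 RPKM in control 12. Without that embryo they were at 0.32 and 0.61, and TFAM and ELAC2 (−0.34) had the next smallest p after MTERF3. TFAM was at 0 to 4.26 RPKM in knockouts and 0 to 7.99 RPKM in controls, a log2 change of −0.38 (−0.54 without control 12). POLRMT, the mitochondrial RNA polymerase, had 0.50, and POLG −0.58. Without control 12, which had POLRMT at 0 and POLG at 45.7 RPKM, they had 0.28 and −0.22. LRPPRC, which stabilises mitochondrial messengers, was below the filter, with medians of 0.80 and 0.89 RPKM.

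In morulae 17 of these nuclear genes were tested, 4 higher and 13 lower in knockouts, with a median of −0.36 close to that of all genes, and none passed. GRSF1, an RNA-binding protein of mitochondrial RNA granules in human cells, was at 0 in knockouts 21 and 49, 0.876 RPKM in knockout 5 and 2.13 RPKM in knockout 1, and at 2.81 to 6.66 RPKM in controls. Every knockout lay below every control, as for 397 of 5021 genes tested (7.91%). Knockout 21 had 29 of the 31 listed genes in the morula table at 0 and knockout 49 had 16, against 0, 1, 4 and 13 in the controls, and the part of depth in these zeros was not tested. The log2 change of GRSF1 was −1.24 ± 0.54 (p = 0.0446, limma-trend adjusted p = 0.698). SUPV3L1, a helicase of the mitochondrial RNA decay complex of human cells, was at −0.60, POLRMT at −0.94, LRPPRC at −0.23, TFAM at 0.63 and POLG at 0.63. Between sexes in blastocysts, 17 of 20 were higher and 3 lower in males (13 and 7 without control 12), when all genes had a median of 0.26, and none passed. TEFM (0.59), FASTK (0.94) and SLIRP (0.85), the partner protein of LRPPRC, had the smallest p. Without control 12, a female, they were at 0.52, 0.83 and 0.99.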

How the data were processed

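Polyadenylated RNA of 34 single embryos was measured, 26 blastocysts and 8 morulae, grouped by the genotype, stage and sex in the labels. Control blastocyst 72 was taken as male, after its title, although its column name says female, which was tried as well. Per the labels' protocols, RNA was extracted with a column kit and made into stranded libraries. Per the submitters' processing notes, FastQC, featureCounts and edgeR were used on ARS-UCD1.2; versions, aligner, annotation and strand setting are not given in the sources used here. The values the authors deposited are RPKM per gene and embryo, in 1 table per stage, each scaled separately; that the morula values are RPKM was read from the values. The authors' deposited tables also hold per-gene p-values, FDR and log2 fold changes, with sex as a block, of which only what is credited to that table was used.

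Every RPKM was a whole number of reads (100% of values within 0.01 reads) once multiplied by gene span and divided by the worth of 1 read in that embryo. Shares of reads, ratios and Wilson intervals (95%) came from these reads. Totals per embryo, 43679 to 17598170 reads, set the precision of each share; a count of 0 still allows 3 reads. Shares, ratios and marker sums were described without a test.

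The main test was limma-trend (limma 3.58.1, R 4.3.3) on log2(RPKM + 1), which understates changes of low genes, with robust moderation, two-sided, adjusted over all tested genes by Benjamini and Hochberg at 0.05. The filter kept genes that reached 1 RPKM in 9 blastocysts or 4 morulae. Sex was a term for genotype, and genotype for sex. Each embryo was 1 replicate; the labels do not say which embryos shared parents or collections, so p-values measure the spread between these embryos. The method was tested on simulated data, where at morula depth it recovered fewer of the changed genes than voom and made more false calls. Tables were read with pandas 2.3.3. The mitochondrial genes, the list of 34 nuclear genes and the marker lists were chosen with earlier results of these data known. All mitochondrial messenger and rRNA genes were named, and tRNA genes where they had the most reads. Of the nuclear genes TFAM, POLRMT, POLG and LRPPRC were named and, per comparison, the 3 with the smallest p. SSBP1 was named beside TFAM after the values were seen. Alternatives changed the pseudocount, filter, scaling, covariate, test and embryos.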

Additional observations from a re-analysis of the deposited data

Results flagged for a closer look

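In groups of 4 to 9 embryos, 54 sets of values were checked for an embryo far from the others relative to the range of its group, and 5 stood out; chance gives about 1 in 20 sets. Knockout blastocyst 58 stood out 3 times. It had 4.10 COX3 reads for each ND4 read, when the next knockout had 1.83, its COX3 share of messenger reads was 34.2%, when the next was 23.7%, and its ND5 share was 3.57%, when the next lowest was 6.20%. These 3 measures share reads and are not independent. Knockout morula 5 had a COX3 share of messenger reads of 20.8%, when the next knockout morula had 15.8%. Control morula 54 had 8.78% of its mitochondrial reads in the rRNA genes, when the next control morula had 26.7%. The control blastocysts, 17 embryos, were outside the size for which this check is made, so control 12 was not checked by it.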

How the results depend on the processing

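No alternative called a gene between knockout and control blastocysts, nor did leaving out any one morula call one between genotypes. In morulae 44 genes were called with a pseudocount of 0.1, 43 with RPKM scaled to reads outside the mitochondrial genes, 33 without the sex term and 1 by voom, none of them mitochondrial messengers. Between sexes 1 gene was called without control 12. Of 210 recomputed log2 changes of single genes between knockout and control blastocysts, 206 kept their direction; COX1 turned to 0.051 without control 12, ND4L to −0.17 in females only, and ND3 to 0.098 and the shorter rRNA gene to 0.069 without the blastocysts under 2% of bta-mir-2887-1 reads, added after seeing the data. Of 294 in morulae 35 turned, and 11 of 84 between sexes; no mitochondrial messenger was called under any setting, and the cause of these turns was not tested.

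In morulae, scaling to the other reads turned ND1 to −0.068 and ND4L to −0.033. Without the sex term ND1 was −0.37, ND2 −0.15, COX1 −0.027, ATP6 −0.21, ND4L −0.65, ND4 −0.36 and TFAM −0.30. With median ratio scaling ATP8 was 0.13, COX3 0.018, ND5 0.085 and ND6 0.0022. Leaving out 1 morula at a time, the change ran from −0.95 (without control 73) to 0.75 (without knockout 1) for ATP8, and between the same 2 settings from −0.71 to 0.75 for ND1, −0.56 to 0.95 for ND2, −0.67 to 0.99 for COX1, −0.043 to 0.69 for ATP6, −0.11 to 0.22 for ND4L, −0.31 to 0.69 for ND4, −0.72 to 0.44 for ND5, −0.80 to 0.35 for ND6 and −1.18 to 0.56 for the shorter rRNA gene. POLRMT ran from −1.98 (without knockout 1) to 0.10 (without control 73), and COX3 from −0.48 (without knockout 21) to 0.0499 (without knockout 1).

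Between sexes, without control 12 the shorter rRNA gene turned to 0.11, ND1 to 0.12, ND2 to 0.076, COX2 to 0.20, ND3 to 0.080, CYTB to 0.012, POLRMT to −0.12 and POLG to 0.034, and voom turned ND2 to 0.024, COX2 to 0.18 and ND3 to 0.16. Over messengers alone the median mitochondrial share of knockout blastocysts was 3.43%, since rRNA genes are left out. Per length, which weighs genes by their span, the ND4 share was 9.13% in knockout and 9.01% in control blastocysts, and 9.91% and 9.87% in knockout and control morulae, and the COX3 share of knockout morulae was 18.9%. Shallow morulae, with as few as 854 mitochondrial reads, limit ATP8, ND3 and the tRNA genes most. The planned edgeR fits on recovered reads were not run; voom and median ratio scaling, chosen after seeing the data, stand in their place, as do the other sex of control 72 and shares without each morula. No paired analysis was possible because the embryo numbers are each used once.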
